A study of Homo sapiens with 12 samples.

Results

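The comparison described here is between the 2 short hairpin RNAs (shRNAs) against XPO7 in IMR90 ER:RAS cells: 3 libraries with shXPO7_5 against 3 libraries with shXPO7_3, 6 of the 12 RNA-seq libraries of the series. Members were chosen by the shRNA and induction state named in the sample labels. IMR90 is a line of human lung fibroblasts, and in ER:RAS an oncogenic RAS is joined to an estrogen receptor domain that binds hormone, through which 4-hydroxytamoxifen (4OHT) switches RAS on and drives the cells into oncogene-induced senescence (OIS). All 6 libraries came from ER:RAS cells given 100 nM 4OHT and collected 5 days after induction and 7 days in culture, with a change of medium on day 4. Beside them stood 3 induced libraries (ER:RAS with 4OHT) and 3 non-induced libraries (ER:RAS without 4OHT). The titles of these libraries name no vector. The paper calls the control of its RNA-seq vector, and in other experiments on these cells a nontargeting control, so whether it carried a hairpin is not certain. The hairpin named shXPO7_5 in the labels was taken to be the one that the study writes as shXPO7_X5. Whether libraries of 1 group are separate cultures is not stated, and p-values here measure spread among libraries that may be technical replicates.

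XPO7 (exportin 7) belongs to the karyopherin family, the transport receptors that carry proteins through nuclear pores under control of the GTPase RAN. In OIS, cells stop dividing, raise CDK inhibitors such as p21 (CDKN1A) and secrete cytokines, chemokines and proteases, together called the senescence-associated secretory phenotype (SASP). An shRNA enters the microRNA pathway, and any single hairpin may act on transcripts other than its target, so that hairpins against 1 gene are commonly used side by side. A direct contrast of both hairpins shows which transcripts they leave at different levels under the same induction.

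Total counts were 30623686 to 37472948 with shXPO7_5 and 33303397 to 60397769 with shXPO7_3, and 3.66 to 4.30% of counts lay on mitochondrially encoded genes. Fibroblast markers summed to 19952 to 22566 CPM (counts scaled to a common library size) with shXPO7_5 and 18470 to 22307 CPM with shXPO7_3, and 12 of 12 passed the filter on low counts. Epithelial markers summed to 46.1 to 61.0 against 42.1 to 51.8 CPM (5 of 10 passed; KRT5 and KRT14 were at 0). Endothelial markers summed to 21.7 to 25.9 against 22.4 to 24.4 CPM (6 of 9 passed; PECAM1 and CDH5 were at 0). Leukocyte markers summed to 1.12 to 1.21 against 1.09 to 1.39 CPM (1 of 10 passed; CD3E was at 0). Libraries of 1 hairpin differed by more than sampling noise, with a mean chi-square per gene between pairs of 4.57 to 61.7.

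XPO7 had the smallest p of all genes. The targeted gene lies on chromosome 8 (ENSG00000130227). Its normalised level was 26.4, 28.7 and 27.9 CPM in shXPO7_3 replicates T, A and B and 50.8, 54.0 and 51.8 CPM in the same replicates of shXPO7_5. The groups did not overlap, and the induced libraries stood far above both, at 137 ± 8.81 CPM (SD, n = 3). XPO7 was thus left at 20.3% of the induced mean by shXPO7_3 and at 38.2% by shXPO7_5, so shXPO7_5 was the weaker of the knockdowns. The difference, shXPO7_5 minus shXPO7_3, was 0.92 on the log2 scale (SE 0.0717, 95% confidence interval 0.76 to 1.07, adjusted p = 0.000387 in edgeR's quasi-likelihood test). In the exact two-sided permutation test over the 6 libraries p was 0.1, the smallest that 3 against 3 allows. In an edgeR fit of the 6 shRNA libraries alone the difference was 0.91 with an adjusted p of 0.114, and before adjustment XPO7 did not reach a required difference of 1 on the log2 scale.

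PTGS2 went the other way. It encodes cyclooxygenase 2, the inducible enzyme that makes the precursor of prostaglandins, and lies on chromosome 1 (GRCh38, 186671791 to 186680427, minus strand, ENSG00000073756). Its level was 42.1, 48.3 and 48.6 CPM in shXPO7_3 replicates T, A and B and 23.6, 28.1 and 20.4 CPM in those of shXPO7_5, beside 42.9 ± 4.45 CPM (SD, n = 3) in induced and 1.11 ± 0.0435 CPM (SD, n = 3) in non-induced libraries. All 3 shXPO7_5 libraries lay below all 3 shXPO7_3 libraries, and the shXPO7_3 libraries lay near the induced ones. The difference was -0.95 (SE 0.116, 95% confidence interval -1.20 to -0.69, adjusted p = 0.0246, edgeR; exact two-sided permutation p = 0.1). The adjusted p was 0.207, 0.261, 0.297 and 0.132 without shXPO7_3 replicate A, shXPO7_3 replicate B, shXPO7_5 replicate T and shXPO7_5 replicate B, and 0.127 and 0.533 in fits of the 9 libraries with 4OHT and of the 6 shRNA libraries. The sign was the same in each.

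**Figure D1:**
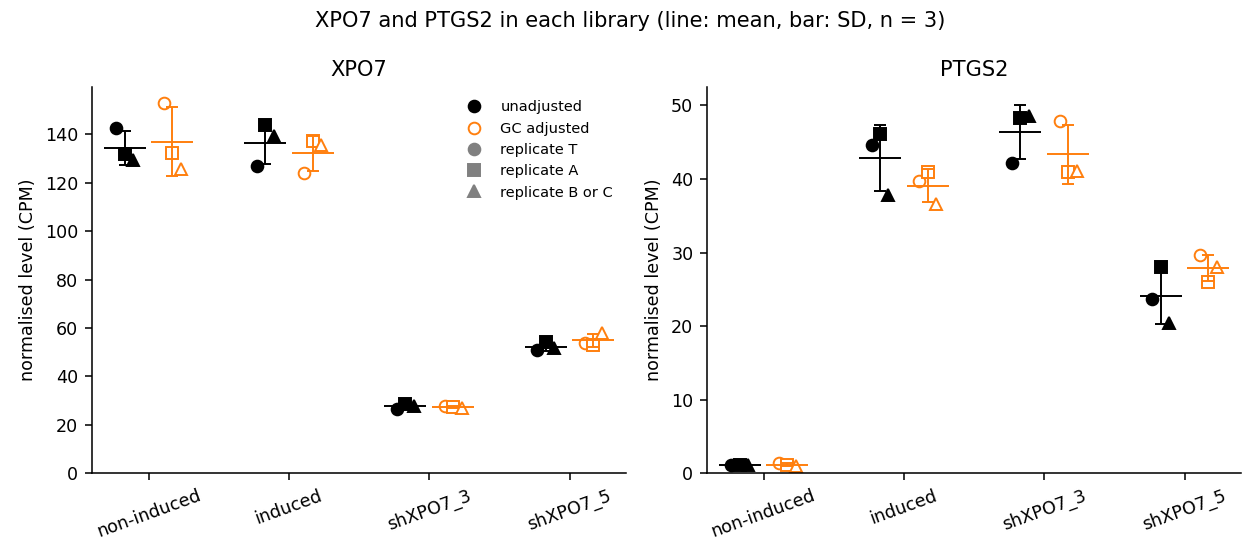
Normalised level in CPM (y axis) of XPO7 (left) and PTGS2 (right) in each of the 12 libraries, by group (x axis); filled points are unadjusted and open points GC adjusted, horizontal lines are means and bars SD (n = 3). XPO7 lies at 26.4 to 28.7 CPM with shXPO7_3 and 50.8 to 54.0 CPM with shXPO7_5 before adjustment, and PTGS2 at 42.1 to 48.6 and 20.4 to 28.1 CPM.

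Of 15284 genes tested without adjustment for GC content, only XPO7 and PTGS2 passed an adjusted p of 0.05, which is 0.0131% of the genes tested (0.00654% in each direction). DESeq2 called 27 genes on the same counts, 17 of them higher with shXPO7_5. The unadjusted p was under 0.05 for 1819 genes (11.9%), and the libraries of both hairpins did not overlap for 1484 genes (9.71%). The median difference over all genes was 0.0096, and 8.43% of genes differed by more than 0.5 on the log2 scale in either direction. Genes higher and lower with shXPO7_5 differed in base composition. Among the 100 of smallest p, 64 were higher with shXPO7_5 and had a median transcript GC content of 58.8%, while those that were lower had 44.0%, beside 49.3% over all genes.

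The difference between the hairpins followed the GC content of the transcripts. Genes are not independent of each other, and across 14864 of them Spearman's rho between the difference and GC content was 0.70, and that with transcript length was -0.065. In the tenth of genes lowest in GC content (27.8 to 40.2%) the median difference was -0.35, and 4.17% of the genes were higher with shXPO7_5. In the tenth highest in GC content (61.7 to 74.5%) it was 0.22, and 91.2% were higher.

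This trend ran between libraries as well as between hairpins. Taken against the mean of the 6 libraries, the correlation with GC content was 0.38, -0.69 and -0.66 in shXPO7_3 replicates T, A and B and 0.49, -0.50 and 0.77 in shXPO7_5 replicates T, A and B. Replicate T of shXPO7_3 therefore leaned toward GC-rich transcripts like replicates T and B of shXPO7_5, and replicate A of shXPO7_5 leaned the other way like replicates A and B of shXPO7_3. The hairpins differed in how many of their libraries leaned each way, and a change made by a hairpin and a trend of single libraries cannot be told apart from these counts alone.

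**Figure D2:**
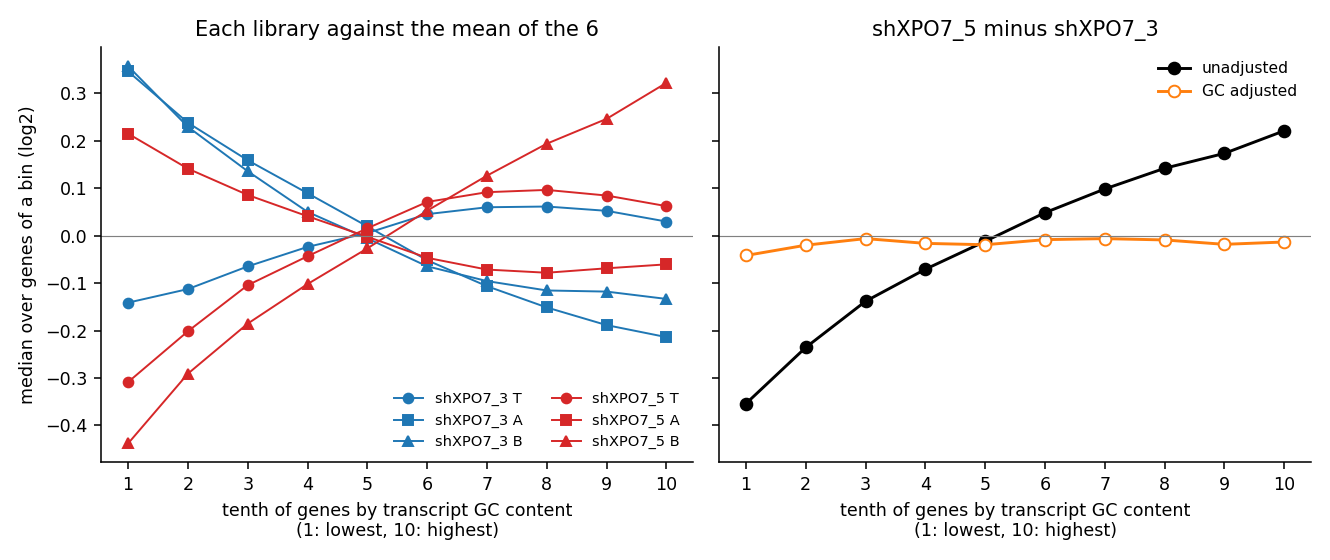
Median log2 difference (y axis) over genes in 10 bins of transcript GC content (x axis, lowest to highest). On the left each library is set against the mean of the 6 libraries (blue, shXPO7_3; red, shXPO7_5; circle, square and triangle, replicates T, A and B); on the right shXPO7_5 minus shXPO7_3 runs from -0.35 to 0.22 before adjustment (black) and stays between -0.042 and -0.0061 after it (orange). The flat orange line follows from the adjustment, which was fitted on GC content.

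For a reader to see the base composition at issue, 60 coding bases are shown of each of 4 genes. L1CAM (a cell adhesion molecule) and CDKN1A stand for GC-rich transcripts, and PTGS2 and ATAD1 (an ATPase of the mitochondrial outer membrane) for GC-poor ones. Each window lies within 1 exon and is the first whose GC content is nearest to that of the gene's transcripts. Capitals mark G and C. The positions are chrX:153872633-153872692 (minus strand, exon 4 of 29), chr6:36684204-36684263 (plus strand, exon 2 of 3), chr1:186679098-186679157 (minus strand, exon 3 of 10) and chr10:87814519-87814578 (minus strand, exon 2 of 10) of GRCh38, in the order below, from GENCODE release 29.
L1CAM: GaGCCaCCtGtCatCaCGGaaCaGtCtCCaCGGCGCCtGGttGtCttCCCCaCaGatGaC
CDKN1A: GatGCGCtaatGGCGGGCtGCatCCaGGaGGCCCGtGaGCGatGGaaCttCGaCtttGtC
PTGS2: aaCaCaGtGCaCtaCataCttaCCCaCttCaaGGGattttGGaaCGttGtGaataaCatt
ATAD1: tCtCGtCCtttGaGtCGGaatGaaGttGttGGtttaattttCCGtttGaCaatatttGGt
G and C made up 36 of the 60 bases in the windows of L1CAM and CDKN1A, 23 in that of PTGS2 and 22 in that of ATAD1.

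The comparison was then repeated with the trend of each library on GC content and length taken out. For every library a smooth curve of its log2 ratio to the mean of all 12 libraries was fitted without the groups and used as an offset in the same edgeR test. After this adjustment the correlation of the difference with GC content was 0.020, and the biological coefficient of variation, edgeR's measure of spread between replicates, was 0.0728 in place of 0.124. The low correlation follows from the way the offset was fitted and is no separate result. A change made by a hairpin that followed GC content would be taken out as well. The differences of single genes before and after had a Pearson correlation of 0.84 across genes. The median difference over all genes became -0.015, and 44.9% of genes had a value above 0.

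After adjustment 39 of 14864 genes passed (0.262%), 19 higher (0.128%) and 20 lower (0.135%) with shXPO7_5. The libraries of both hairpins did not overlap for any of the 39 (12.8% of all genes tested). As the 39 were chosen by p from these same libraries, this is no separate support for them. Of the 39, 38 had the same sign before adjustment, 31 had an unadjusted p under 0.05 there, and 24 had a smaller difference after it. Most differences were small, since 8 of the 39 reached 0.5 on the log2 scale and 1 reached 1. Among the 39, XPO7 was called in 17 of 17 other versions of the adjusted fit (6 of them leaving out 1 library each), FAM217B, L1CAM and TOR1B in 16, PTGS2 in 15, and the other 34 genes in 3 to 12. The number of calls fell to 4, 5, 6, 7 and 12 without shXPO7_5 replicate B, shXPO7_5 replicate T, shXPO7_3 replicate A, shXPO7_3 replicate B and shXPO7_3 replicate T, was 42 without shXPO7_5 replicate A, and was 1 (XPO7) in a fit of the 6 shRNA libraries alone. With upper-quartile factors 17 of 23 calls were higher with shXPO7_5, a split of 73.9% beside 48.7%.

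**Figure D3:**
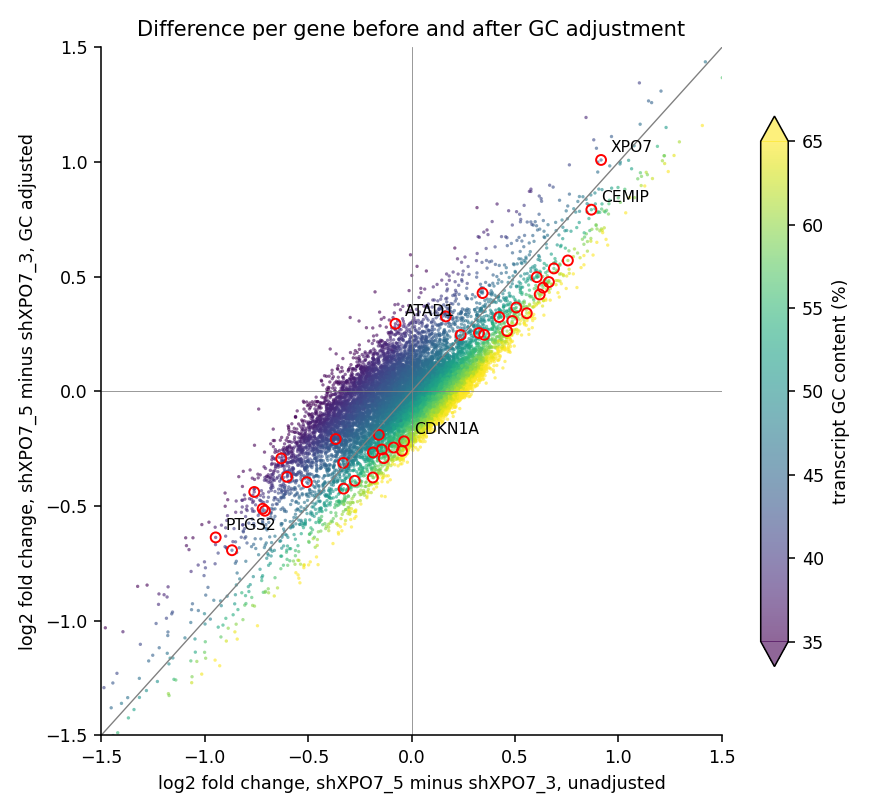
Difference between the hairpins (log2 fold change, shXPO7_5 minus shXPO7_3) before (x axis) and after GC adjustment (y axis) for 14864 genes, coloured by transcript GC content; red rings mark the 39 genes that passed after adjustment, the diagonal marks equal values, and 76 genes lie beyond the limits of 1.5. Genes low in GC content lie above the diagonal and genes high in GC content below it, while XPO7 and PTGS2 stay at the edges of the cloud.

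The GC-adjusted level of XPO7 was 27.9, 27.2 and 26.8 CPM in shXPO7_3 replicates T, A and B and 53.7, 52.9 and 58.0 CPM in those of shXPO7_5. The difference was 1.01 (SE 0.0724, 95% confidence interval 0.85 to 1.17, adjusted p = 0.000144, edgeR). Thus the weaker knockdown by shXPO7_5 was seen with and without adjustment, and XPO7 was the only one of 32 karyopherins and RAN-cycle genes that passed in either fit. RANBP17, the closest relative of XPO7 in the family, differed by -0.17 before (adjusted p = 0.512) and 0.06 after adjustment (adjusted p = 0.705).

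The GC-adjusted level of PTGS2 was 47.9, 41.0 and 41.1 CPM in shXPO7_3 replicates T, A and B and 29.6, 26 and 28.0 CPM in those of shXPO7_5. The difference was -0.64 (SE 0.0771, 95% confidence interval -0.81 to -0.47, adjusted p = 0.00736, edgeR), smaller than before adjustment but with a tighter spread. The difference was below 0 in every alternative of both fits, and its adjusted p was above 0.05 without shXPO7_5 replicate B (0.0602) and with the 6 shRNA libraries alone (0.126). Against the induced libraries the adjusted change was 0.15 with shXPO7_3 (adjusted p = 0.414) and -0.49 with shXPO7_5 (adjusted p = 0.0063). Both of these values share the same 3 induced libraries.

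The 3′ untranslated region (UTR) of PTGS2 is known for AU-rich elements, sequences that shorten the life of cytokine and early-response mRNAs. In its main coding transcript the 3′ UTR was 2562 bases long, 29.7% GC, and held 22 copies of ATTTA, as many or more of which stood in 2.11% of 12844 genes with a 3′ UTR (median 2). The nonamer TTATTTATT, searched on the transcribed strand only since it acts in RNA, was present once, at base 18 of the 3′ UTR, and each such match also contains ATTTA. The 30 bases around it, with the nonamer in capitals, lie in exon 10 at chr1:186674316-186674345 (GRCh38, minus strand).
PTGS2 3′ UTR: atgatcatatTTATTTATTtatatgaacca
The nonamer stood in the 3′ UTR of 1079 of 12844 genes (8.40%). Their median difference was -0.10 before adjustment, beside 0.024 in the genes without it, and -0.042 after adjustment, beside -0.012. Genes with the nonamer had a median GC content of 45.8%, beside 50.04% in those without it, and the part of base composition in their median was not tested. After adjustment 3 of the 1079 were called lower and 1 higher, beside 20 lower and 19 higher of all 12844 genes with a 3′ UTR. PTGS2, the gene from which the search started, is 1 of the 3 called lower. The count is therefore not independent of PTGS2 and is no separate support for a part of the nonamer.

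Other genes of prostaglandin metabolism were read from a list of 24 genes, of which 20 were tested. After adjustment 2 of the 20 were lower (PTGS2 and TBXAS1) and none was higher, beside 0.135% and 0.128% of all genes, and PTGS2 had been chosen with earlier results of these data known. Of the 20, 7 had a difference above 0, and the list's median was -0.054, beside -0.015 over all genes. PTGER1, a receptor on the list, went the other way from PTGS2. It was at 0.95 before and 0.64 after adjustment and did not pass (adjusted p = 0.388 and 0.482, edgeR). Its adjusted levels were low, at 0.491 to 0.551 CPM with shXPO7_3 and 0.735 to 0.875 CPM with shXPO7_5. TBXAS1, the synthase that turns the product of the cyclooxygenases into thromboxane, was at 59.2, 57.4 and 58.1 CPM with shXPO7_3 and 49.1, 47.9 and 48.2 CPM with shXPO7_5 (difference -0.27, SE 0.0431, adjusted p = 0.0354, edgeR). Before adjustment TBXAS1 did not pass (-0.19, adjusted p = 0.388), and after it TBXAS1 was called in none of the 6 fits that left out 1 library. PLA2G4A, the phospholipase that releases arachidonic acid, differed by -0.33 (adjusted p = 0.343), PTGS1, the constitutive cyclooxygenase, by -0.15 (adjusted p = 0.189), and the terminal synthase PTGES by 0.46 (adjusted p = 0.626), none of which passed.

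**Figure D4:**
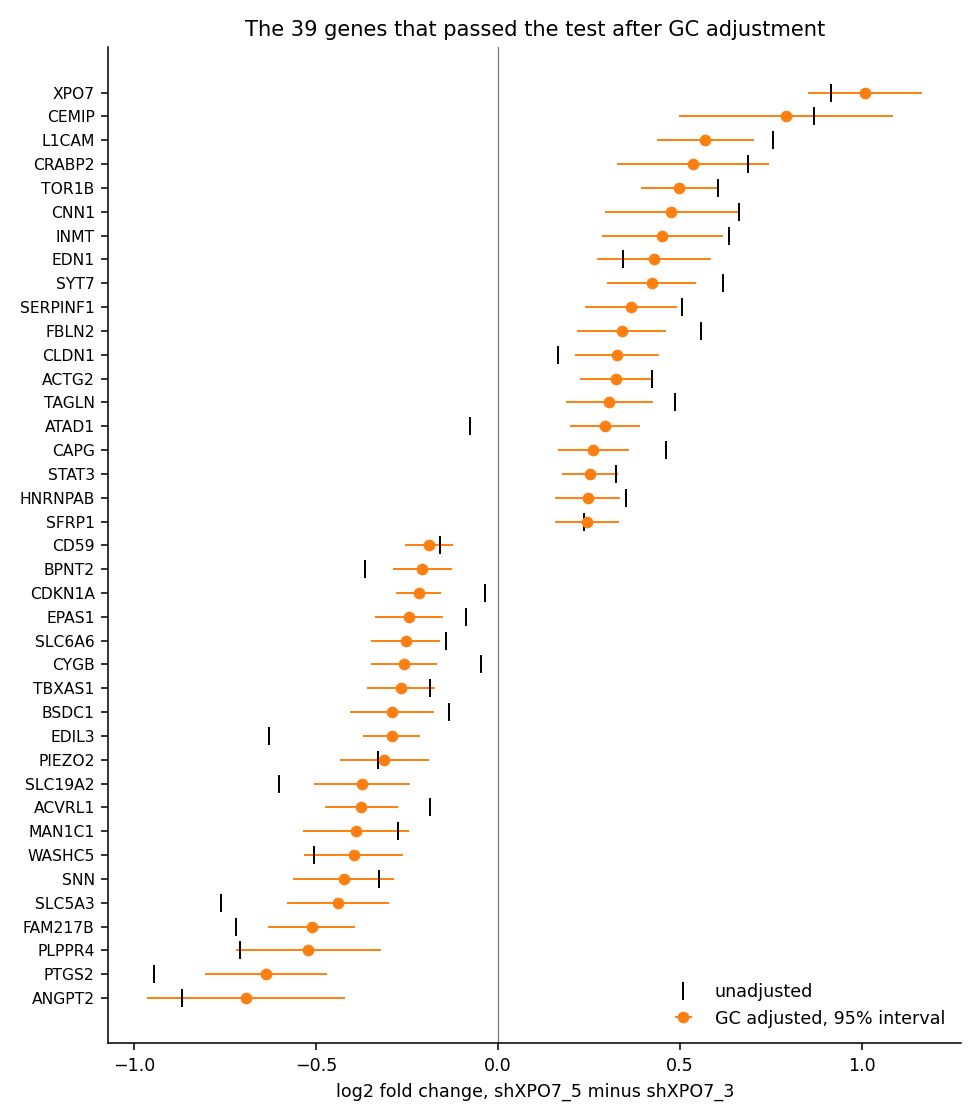
The 39 genes that passed after GC adjustment, in order of the GC-adjusted difference, shXPO7_5 minus shXPO7_3 (x axis, log2 fold change); orange points with bars give the adjusted value with its 95% confidence interval and black ticks the unadjusted value. XPO7 at 1.01 and ANGPT2 at -0.69 are at the ends, and ATAD1 is the gene whose tick lies on the other side of 0.

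Among the 19 genes that were higher with shXPO7_5, L1CAM and TOR1B were the most stable beside XPO7. L1CAM stood at 26, 22.7 and 25.2 CPM with shXPO7_3 and 36.9, 38.7 and 34.4 CPM with shXPO7_5 after adjustment (difference 0.57, SE 0.0608, adjusted p = 0.00315, edgeR). TOR1B, a torsin ATPase of the nuclear envelope and endoplasmic reticulum, stood at 44.1, 40.7 and 42.9 against 63.9, 59.3 and 57.3 CPM (0.50, SE 0.0486, adjusted p = 0.00215). For both genes shXPO7_5 left the level near that of the induced libraries, 38.0 ± 1.65 and 65.8 ± 1.64 CPM (SD, n = 3), and the shXPO7_3 libraries were the low ones. CEMIP, which takes part in the breakdown of hyaluronan, had the next largest difference after XPO7 among the genes called higher (0.79, SE 0.135, adjusted p = 0.0411) at low levels of 1.25 to 1.47 against 2.19 to 2.59 CPM. It was called in none of the 6 fits that left out 1 library.

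Smooth-muscle contractile genes, which fibroblasts turn on as they become myofibroblasts, held 3 of the 19 genes called higher. The 3 were among 14 tested, beside 0.128% of all genes called higher. Of the 14, 12 had a difference above 0 before adjustment (median 0.25) and 10 after it (median 0.11, beside -0.015 over all genes). The 3 called higher were CNN1 (calponin; 14.6, 12 and 14.6 against 18.9, 18.1 and 20.4 CPM; difference 0.48, adjusted p = 0.0467), ACTG2 (smooth-muscle gamma actin; 140, 145 and 148 against 178, 170 and 193 CPM; 0.32, adjusted p = 0.0173) and TAGLN (transgelin; 392, 343 and 402 against 474, 448 and 485 CPM; 0.31, adjusted p = 0.0496). ACTA2, the alpha actin that marks myofibroblasts, differed by 0.22 (adjusted p = 0.0959), and CALD1 and MYH11 were at -0.29 and -0.32 (adjusted p = 0.621 and 0.801). Against the same induced libraries TAGLN and ACTG2 were at -0.29 and -0.28 with shXPO7_3 (adjusted p = 0.0172 and 0.00742) and at 0.01 and 0.04 with shXPO7_5 (adjusted p = 0.909 and 0.627). CNN1 and TAGLN were each called in 1 of the 6 fits that left out a library, as was ACTG2.

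Further genes were called higher. FBLN2 (fibulin 2) differed by 0.34 (adjusted p = 0.0382), SERPINF1 (an antiangiogenic serpin) by 0.37 (adjusted p = 0.0354), SFRP1 (a WNT antagonist) by 0.25 (adjusted p = 0.0372), and EDN1 (endothelin 1, a vasoconstrictor peptide) by 0.43 (adjusted p = 0.0408). SERPINF1 and EDN1 were called in none of the 6 fits that left out 1 library, FBLN2 in 2 and SFRP1 in 1. STAT3, the transcription factor downstream of IL-6 family receptors, was at 141, 137 and 141 CPM with shXPO7_3 and 167, 164 and 168 CPM with shXPO7_5 (0.25, SE 0.0352, adjusted p = 0.0163), while the induced libraries were at 170 ± 3.11 CPM (SD, n = 3). It was thus the shXPO7_3 libraries that lay below the induced level. CRABP2 (a retinoic acid carrier, 0.54), INMT (a methyltransferase, 0.45), SYT7 (a synaptotagmin, 0.42), CLDN1 (a tight-junction claudin, 0.33), CAPG (an actin-capping protein, 0.26) and HNRNPAB (an RNA-binding protein, 0.25) made up the rest with ATAD1. Of these, INMT and CAPG were called in none of the 6 fits that left out 1 library, and the others in 1 or 2.

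ATAD1 was the only called gene whose sign turned. Before adjustment it stood at 47.7, 68.1 and 67.3 CPM with shXPO7_3 and 52.4, 71.5 and 49.6 CPM with shXPO7_5, groups that overlap (difference -0.08, adjusted p = 0.799). After adjustment the values were 54.5, 57.1 and 55.1 against 67.7, 65.1 and 71.7 CPM (0.29, SE 0.044, adjusted p = 0.0247). As its window above shows, it is GC-poor (37.1% GC over its transcripts), so the adjustment raised it in the libraries that leaned toward GC-rich transcripts.

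Among the 20 genes that were lower with shXPO7_5, FAM217B was the most stable. It stood at 21.5, 22.7 and 22.9 CPM with shXPO7_3 and 15.5, 16.3 and 15.2 CPM with shXPO7_5 (difference -0.51, SE 0.0552, adjusted p = 0.00315, edgeR), beside 23.2 ± 1.09 CPM (SD, n = 3) in the induced libraries. Here the shXPO7_5 libraries were the ones away from the induced level. ANGPT2, the angiopoietin that antagonises the TIE2 receptor, had the largest difference of the genes called lower (-0.69, SE 0.125, adjusted p = 0.0496), at 4.50, 5.43 and 5.18 against 3.21, 3.12 and 3.04 CPM, and was called in none of the 6 fits that left out 1 library. Also called lower were ACVRL1 (ALK1, a receptor for BMP9; -0.38, adjusted p = 0.00736), EDIL3 (an integrin ligand; -0.29, adjusted p = 0.00736) and EPAS1 (HIF-2 alpha; -0.24, adjusted p = 0.0448). ACVRL1 and EDIL3 were called in 2 of the 6 fits that left out 1 library, and EPAS1 in 1. Before adjustment the libraries of the hairpins overlapped for EDIL3 and EPAS1. TEK, which encodes the TIE2 receptor, differed by -0.34 (adjusted p = 0.0762).

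Several transporters and a channel, put together after their values were seen, were also called lower. SLC5A3 (the sodium and myo-inositol cotransporter) stood at 92.7, 82.2 and 85.9 against 69.1, 64.8 and 58.5 CPM (-0.44, SE 0.0643, adjusted p = 0.0236). SLC19A2 (thiamine, -0.37, adjusted p = 0.0354), SLC6A6 (taurine, -0.25, adjusted p = 0.0411) and PIEZO2 (a mechanosensitive channel, -0.31, adjusted p = 0.0496, edgeR) differed less. PLPPR4 (-0.52), SNN (-0.42), WASHC5 (a subunit of the WASH complex, -0.40), MAN1C1 (a Golgi mannosidase, -0.39), BSDC1 (-0.29), BPNT2 (a phosphatase of the Golgi, -0.21) and CD59 (an inhibitor of complement, -0.19) were also lower. Their adjusted p lay between 0.0247 (SNN) and 0.0499 (BSDC1, edgeR). SLC19A2, PLPPR4, MAN1C1 and CD59 were called in none of the 6 fits that left out 1 library. WASHC5 was called in 2 of these fits and the other genes of this paragraph in 1. Before adjustment SLC6A6 and BSDC1 were at -0.14 and -0.13, with overlapping libraries.

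CDKN1A, the CDK inhibitor p21, was lower with shXPO7_5 after adjustment and not before it. Unadjusted levels were 1165, 998 and 1046 CPM in shXPO7_3 replicates T, A and B and 1058, 924 and 1148 CPM in those of shXPO7_5, and the groups overlapped (difference -0.04, adjusted p = 0.826). Adjusted levels were 1093, 1117 and 1128 against 965, 959 and 947 CPM, with no overlap (-0.22, SE 0.0279, adjusted p = 0.00919, edgeR), beside 1201 ± 23.5 CPM (SD, n = 3) in the induced libraries. Of 38 p53 targets on the list, CDKN1A alone passed, after adjustment, beside 0.135% of all genes called lower. After adjustment 8 of the 38 had a difference above 0 (15 before), beside 44.9% of all genes. Their median was -0.066 (before, -0.058), beside -0.015 over all genes (before, 0.0096). Adjusted library medians of the list were 0.0030, 0.065 and 0.052 in shXPO7_3 replicates T, A and B. In those of shXPO7_5 they were -0.053, 0.014 and -0.035, so the libraries of the hairpins overlapped. MDM2, the ligase that degrades p53, differed by -0.16 (adjusted p = 0.301) and SESN2 by 0.15 (adjusted p = 0.298). CYGB, a globin that both hairpins raised against the induced libraries after adjustment (0.75 with shXPO7_3 and 0.49 with shXPO7_5, adjusted p = 4.66e-06 and 0.000259), showed the same feature: the hairpins differed by -0.05 before (adjusted p = 0.789) and -0.26 after adjustment (adjusted p = 0.0354). After adjustment CDKN1A was called in 2 of the 6 fits that left out 1 library, and CYGB in none.

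Of 44 SASP genes tested none passed in either fit. Their median difference was -0.066 before and -0.047 after adjustment, 17 and 18 of the 44 had a value above 0, and the unadjusted p was under 0.05 for 19 and 21 of them, beside 11.9% and 10.3% of all genes. Chemokines that act on the receptor CXCR2, picked out after the values were seen, were at -0.49 (CXCL1, adjusted p = 0.126), -0.67 (CXCL2, adjusted p = 0.42), -0.56 (CXCL3, adjusted p = 0.282) and -0.71 (CXCL6, adjusted p = 0.253) after adjustment. CXCL5, a further ligand of this receptor, was at -0.60 before (adjusted p = 0.31) and -0.24 after adjustment (adjusted p = 0.448). CXCL8, which also acts on it, was at -0.33 before (adjusted p = 0.388) and 0.01 after adjustment (adjusted p = 0.953). IL1A likewise went from -0.26 to 0.04 and IL6 from -0.05 to -0.01 (adjusted p = 0.838 and 0.982 after adjustment), and IL1B was at -0.20 and -0.23 (adjusted p = 0.388 and 0.359).

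TCF3, an E-protein transcription factor, is an example of a difference that shrank with the adjustment. Its levels were 92.4, 79.0 and 87.4 CPM with shXPO7_3 and 97.7, 92.9 and 116 CPM with shXPO7_5, without overlap, but the difference of 0.25 did not pass (adjusted p = 0.388). After adjustment the levels were 86.8, 89.2 and 94.8 against 88.9, 95.8 and 92.1 CPM, which overlap (0.03, 95% confidence interval -0.08 to 0.14, adjusted p = 0.829). ANO1 and SUSD2 differed by 0.25 and 0.36 before (adjusted p = 0.388 for each) and by 0.13 and 0.15 after adjustment (adjusted p = 0.587 and 0.531).

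None of the 42 S phase or 54 G2/M genes tested, lists distributed with the Seurat package, passed in either fit, with medians of -0.065 and -0.073 before and -0.0068 and 0.011 after adjustment. The members of largest difference before adjustment were CASP8AP2 (S phase, -0.76) and KIF20B (G2/M, -0.89). After it they were at -0.48 and -0.47 (adjusted p = 0.537 and 0.502, edgeR). MKI67, the proliferation marker Ki-67, differed by -0.03 after adjustment (95% confidence interval -0.21 to 0.15, adjusted p = 0.896), and LMNB1, the lamin lost in senescence, by -0.14 (-0.33 to 0.06, adjusted p = 0.581). Differences of any size within these intervals remain compatible with the values of these libraries.

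**Figure D5:**
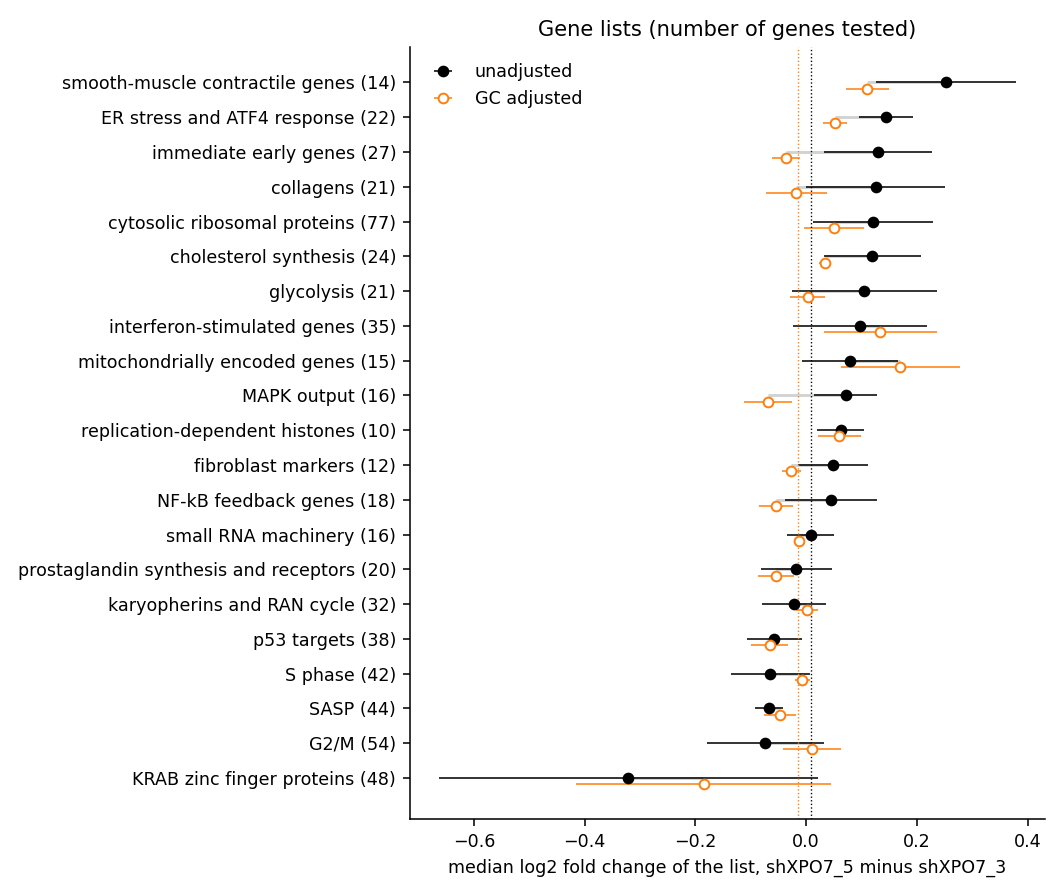
Median difference of each gene list with at least 10 genes tested (x axis, log2, shXPO7_5 minus shXPO7_3; number of genes tested in brackets) before (black) and after GC adjustment (orange); bars are the SD between libraries of a group of the list's median, and dotted lines the medians of all genes, 0.0096 and -0.015. Smooth-muscle contractile genes lie at 0.25 before and 0.11 after adjustment, and KRAB zinc finger proteins at -0.32 and -0.18 with wide bars.

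The remaining lists had no member that passed. KRAB zinc finger proteins, repressors with GC-poor transcripts, had a median of -0.32 before adjustment, with 2 of 48 above 0, and -0.18 after it, with 5 of 48 above 0. Their libraries did not follow the hairpins: the adjusted median of the list, against the mean of the 6 libraries, was -0.13, 0.20 and 0.21 in shXPO7_3 replicates T, A and B and -0.21, 0.22 and -0.26 in those of shXPO7_5. Cytosolic ribosomal proteins had a median of 0.12 before and 0.050 after adjustment, with 70 and 64 of 77 above 0. Interferon-stimulated genes had medians of 0.097 and 0.13 (24 of 35 above 0 after adjustment). For both of these lists the adjusted library medians of the hairpins overlapped. That of ribosomal proteins was 0.011 in shXPO7_3 replicate T and -0.036 in shXPO7_5 replicate A. That of interferon-stimulated genes was 0.040 in shXPO7_3 replicate A and 0.018 in shXPO7_5 replicate T, with shXPO7_3 replicate T lowest at -0.22. Collagens went from 0.13 to -0.018, immediate early genes from 0.13 to -0.037, MAPK output genes from 0.071 to -0.069 and glycolysis genes from 0.11 to 0.0025, and the first 3 of these medians changed sign with the adjustment.

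The difference between the hairpins was last set beside the change that RAS induction gives. Genes were taken from the induced and non-induced libraries, which are not among those subtracted in the contrast of the hairpins. These libraries do enter its estimate of spread and, after adjustment, the mean of all 12 libraries behind the trend. The choice of genes is therefore not fully independent of the calls between the hairpins. Before adjustment 1036 genes were higher on induction by at least 1 on the log2 scale (6.78% of those tested) and 1537 lower (10.1%). The induced-higher genes had a median difference between the hairpins of -0.053, with 41.3% above 0, and the induced-lower genes 0.044, with 55.0% above 0, beside 0.0096 and 51.5% over all genes. After adjustment the medians were -0.053 (1021 genes, 6.87% of those tested, 38.3% above 0) and 0.0063 (1503 genes, 51.0% above 0), beside -0.015 and 44.9%. Library medians of the induced-higher genes after adjustment were 0.0035, 0.035 and 0.045 in shXPO7_3 replicates T, A and B and -0.037, 0.0095 and -0.043 in those of shXPO7_5, so replicates T of shXPO7_3 and A of shXPO7_5 overlapped. Of the 20 genes called lower with shXPO7_5, 13 had risen and 5 had fallen on induction at any size, and of the 19 called higher 8 had risen and 8 had fallen, beside 32.5% risen and 31.4% fallen over all genes.

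In relation to the induced libraries the 39 genes were of mixed kind. The adjusted induced mean lay between both hairpins for 18 genes, above both for 14 and below both for 7, and it was nearer to shXPO7_3 for 19 and to shXPO7_5 for 20. Against these same induced libraries 14 genes passed with shXPO7_3 alone, 17 with shXPO7_5 alone, 5 with both and 3 with neither, while over all genes 1.33% passed as higher and 1.03% as lower with shXPO7_3 and 1.53% and 1.47% with shXPO7_5. As both counts share the induced libraries, they place the 39 genes and are no second test of the difference.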

How the data were processed

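RNA-seq counts of 12 libraries in 4 groups of 3 were used, grouped by their labels. The values are read counts, deposited by the authors without normalisation. Tools listed in the submitters' processing notes are featureCounts 1.18.0, TopHat2 2.0.11 and CASAVA 1.8.4, with hg19 and GRCh37 as builds, and library preparation used an Illumina kit for stranded mRNA. Not given in the sources used here were the annotation, the strand setting and how multiply matching reads were treated, which leaves overlapping and near-identical genes less certain. Of 62069 genes, 38397 had a symbol and held 99.4% of counts, while 92 spike-in entries were at 0 and were left out.

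Tests used edgeR 4.0.16 in R 4.3.3 (filterByExpr, TMM, quasi-likelihood test, all 12 libraries, shXPO7_5 minus shXPO7_3, Benjamini-Hochberg, threshold 0.05). GC content and length were medians over GENCODE release 29 transcripts (GRCh38), matched by Ensembl identifier to 97.3% of genes tested. Their trend in each library (natural splines, 5 degrees of freedom) was the offset of the adjusted fit. CPM are scaled by TMM, and adjusted CPM are further divided by the trend. The scripts were tested on simulated data. Members, 25 gene lists and named genes were chosen with earlier results of these data known. The rule for naming took XPO7, PTGS2, 12 further preset genes, called genes (up to 10 each way by size at an average log2 CPM of at least 2), the 6 of smallest p each way and 2 of each list by size. Not all genes that the rule took are described here. Among those left out are IL1R1, RANBP2, RRM2B, KITLG and BIRC3, none of which passed in either fit. All other called genes and list members were named after their values were seen. Intervals cover the spread between libraries. Alternatives were other scaling factors, filters, spline settings, sets of libraries, DESeq2 1.42.0, the replicate letter as a block and each library left out, and, added after seeing the data, alternatives of the adjusted values of single called genes and of OIS genes.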

Additional observations from a re-analysis of the deposited data

Results flagged for a closer look

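The test between the hairpins is also a test of whether their changes against the induced libraries differ, and each gene that passed it is listed for that reason. Before GC adjustment these were XPO7 (0.92) and PTGS2 (-0.95), in log2 units of shXPO7_5 minus shXPO7_3. After adjustment the genes higher with shXPO7_5 were XPO7 (1.01), CEMIP (0.79), L1CAM (0.57), CRABP2 (0.54), TOR1B (0.50), CNN1 (0.48), INMT (0.45), EDN1 (0.43), SYT7 (0.42), SERPINF1 (0.37), FBLN2 (0.34), CLDN1 (0.33), ACTG2 (0.32), TAGLN (0.31), ATAD1 (0.29), CAPG (0.26), STAT3 (0.25), HNRNPAB (0.25) and SFRP1 (0.25). Those lower were ANGPT2 (-0.69), PTGS2 (-0.64), PLPPR4 (-0.52), FAM217B (-0.51), SLC5A3 (-0.44), SNN (-0.42), WASHC5 (-0.40), MAN1C1 (-0.39), ACVRL1 (-0.38), SLC19A2 (-0.37), PIEZO2 (-0.31), EDIL3 (-0.29), BSDC1 (-0.29), TBXAS1 (-0.27), CYGB (-0.26), SLC6A6 (-0.25), EPAS1 (-0.24), CDKN1A (-0.22), BPNT2 (-0.21) and CD59 (-0.19).

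In the adjusted fit PLPPR4 is a case in which both hairpins moved a gene the same way by unequal amounts. Before adjustment its change against the induced libraries with shXPO7_5 was 0.33 (adjusted p = 0.255, edgeR). The difference between the hairpins did not pass there (adjusted p = 0.346), and after adjustment PLPPR4 was called in none of the 6 fits that left out 1 library. Its adjusted level was 5.98 ± 0.774 CPM (SD, n = 3) in the induced libraries, 11.8, 13.0 and 11.9 CPM in shXPO7_3 replicates T, A and B and 7.93, 8.95 and 8.60 CPM in those of shXPO7_5. INMT and SYT7 were at 7.10 ± 0.505 and 12.3 ± 0.259 CPM (SD, n = 3) in the induced libraries, at 8.22 to 9.42 and 13.8 to 14.9 CPM with shXPO7_3 and at 11.6 to 12.7 and 18.9 to 19.8 CPM with shXPO7_5.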

How the results depend on the processing

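Without GC adjustment 2 genes were called. There were 39 with the GC and length adjustment, 24 with the GC slope of each library as a covariate (37.5% of them higher, beside 50%), 20 with no filter beyond 1 count (60% higher), 27 with DESeq2 (17 higher), 1 with only the 9 libraries with 4OHT, 0 with only the 6 shRNA libraries (820 genes had an unadjusted p under 0.05 there, and 1 gene was called after adjustment in those libraries) and 0 with a required difference of 1 on the log2 scale. Leaving out 1 library gave 1 to 4. With only the 6 shRNA libraries XPO7 was at 0.91 and PTGS2 at -0.96 and neither passed. With the 9 libraries PTGS2 was at -0.95 and did not pass, and its range without 1 library was -1.07 to -0.83. After adjustment 39 genes were called, with 12 in the 9 libraries, 1 in the 6 libraries, 23 with upper-quartile factors (73.9% higher, beside 48.7%; 20 of the 39 among them), 1 with a required difference of 1 on the log2 scale, and 4 to 42 without 1 library. PTGS2 after adjustment was at -0.64 in the 6 libraries and did not pass, and ran from -0.68 to -0.56 without 1 library. The cause of these losses was not tested, though the fits of fewer libraries have fewer degrees of freedom.

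Signs of genes that had not passed turned before adjustment for CDKN1A (0.012), MKI67 (0.029) and CYGB (0.0022) with upper-quartile factors, and on adjustment for IL1A (0.042), CXCL8 (0.013), RANBP17 (0.062) and ATAD1 (0.29). Without 1 library CDKN1A ran from -0.10 to 0.046, MKI67 from -0.087 to 0.057, IL6 from -0.14 to 0.013, CYGB from -0.12 to 0.043 and ATAD1 from -0.26 to 0.030. With the genes chosen in the unadjusted fit, the median of induced-higher genes was -0.0041 with upper-quartile factors, and that of induced-lower genes was 0.093 with those factors, 0.0068 after adjustment and 0.033 to 0.074 without 1 library. The adjusted values of called genes, mostly over alternatives added after the data were seen, kept their sign in all 552 comparisons and passed in 281. List medians moved by more than the spread between libraries in 26 of 250 comparisons.

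Same-lettered libraries were not alike throughout: the correlation of deviations from the group means between them was 0.24, 0.37 and -0.23 for T, A and B, and 0.21, 0.18 and -0.11 after adjustment. Deviations from a mean of 3 libraries constrain each other, so whether the letters mark a shared culture or batch cannot be told from these values. With the letter as a block 3 genes were called before adjustment and 38 after it, 32 of them among the 39, with XPO7 at 0.92 and 1.01 and PTGS2 at -0.96 and -0.64, all of which passed. The shRNA libraries held 949 to 1898 counts of XPO7 and 702 to 2884 of PTGS2.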

Other observations

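Gene lists not described so far had no member that passed in either fit. ER stress and ATF4 response genes had a median difference of 0.14 before and 0.053 after adjustment, with 17 and 14 of 22 above 0. ATF4, the transcription factor of the response, was at 0.28 and 0.16 (adjusted p = 0.303 after adjustment), and SLC7A11, the cystine transporter it regulates, at -0.61 and -0.31 (adjusted p = 0.355 after adjustment). Cholesterol synthesis genes had medians of 0.12 and 0.034 (17 and 15 of 24 above 0), and NF-kB feedback genes 0.045 and -0.055 (10 and 6 of 18 above 0). Small RNA machinery, the genes that process microRNAs and shRNAs, had medians of 0.0080 and -0.013, with 8 of 16 above 0 in both fits. E proteins and ID factors had medians of -0.012 and -0.18 (2 and 1 of 7 above 0), and replication-dependent histones 0.063 and 0.060 (6 and 7 of 10 above 0). For E proteins and ID factors the adjusted library medians were -0.094, 0.093 and 0.17 in shXPO7_3 replicates T, A and B. In those of shXPO7_5 they were -0.13, 0.071 and 0.0014, so the libraries of the hairpins overlapped.

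Mitochondrially encoded genes had medians of 0.079 and 0.17, with 11 and 14 of 15 above 0. The adjusted median of this list, against the mean of the 6 libraries, was -0.048, -0.087 and -0.12 in shXPO7_3 replicates T, A and B and 0.19, -0.094 and 0.11 in those of shXPO7_5, so the libraries of the hairpins overlapped. Fibroblast markers had medians of 0.049 and -0.027, with PDGFRA at -0.33 and -0.30 (adjusted p = 0.309 after adjustment) and DCN at 0.08 and 0.27 (adjusted p = 0.23 after adjustment). Epithelial markers had medians of 0.23 and 0.050 (5 genes), endothelial markers 0.050 and -0.085 (6 genes), and FCER1G, the 1 leukocyte marker tested, was at 0.27 and 0.25. Karyopherins and RAN-cycle genes had medians of -0.022 and 0.0019.

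Immediate early genes, which growth factor signalling turns on within minutes, had no call. FOS was at -0.30 before and -0.51 after adjustment (adjusted p = 0.189) and NR4A2 at -0.42 and -0.50 (adjusted p = 0.116), while CCN1 was at 0.25 and 0.10 (adjusted p = 0.389).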
